A study of Mus musculus with 10 samples.

Results

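The glucocorticoid receptor, its sister receptor, the enzymes that set their ligand and 6 classical response genes were examined in embryonic mouse hearts with and without *Nos1ap*. The 10 genes, *Nr3c1*, *Nr3c2*, *Hsd11b1*, *Hsd11b2*, *Fkbp5*, *Tsc22d3*, *Per1*, *Zbtb16*, *Sgk1* and *Klf9*, were chosen by symbol, and each matched exactly 1 of the 23195 genes in the deposited table. PolyA RNA-seq was performed on male hearts of the strain labelled C57BL6/J at embryonic day 13.5, taken from 5 embryos that were wild type and 5 that were *Nos1ap* null. The null embryos carried 2 copies of the tm1d allele, a constitutive null in which exon 4 is deleted and the *lacZ* and *neo* cassettes are gone. This allele was made by crossing floxed mice to CMV-Cre, a line that recombines in all tissues including germ cells, so the loss was not restricted to heart muscle. *Nos1ap* encodes an adaptor of neuronal nitric oxide synthase, and the comparison asks how its loss bears on transcript levels in the developing heart.

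Glucocorticoids act through a receptor, encoded by *Nr3c1*, that is held ready in the cytoplasm by heat shock protein chaperones, moves to the nucleus when it binds ligand, and occupies a paired DNA element near its target genes. *Nr3c2* encodes the mineralocorticoid receptor, which binds the same steroids with high affinity, and the enzymes encoded by *Hsd11b1* and *Hsd11b2* regenerate and inactivate active glucocorticoid inside the cell. *Fkbp5*, *Tsc22d3*, *Per1*, *Zbtb16*, *Sgk1* and *Klf9* are widely used as readouts of receptor activity, and in the fetal heart glucocorticoids are known for their part in late-gestation maturation.

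The deposited table gives 1 mean normalized count per gene and genotype, and whole counts of the single libraries were recovered from the digits of these means for genes up to a mean of 1000. A normalized count is a library's read count divided by its size factor, and libraries are numbered 1 to 5 within a genotype by decreasing size factor, which is only a name. The depth, estimated from the size factors, ran from 11328233 to 14023004 read pairs on genes per library. Numbers of reads given below are numbers of read pairs. *Nos1ap* separated the genotypes: its normalized count ranged from 126 to 161 in the wild-type libraries and from 31.1 to 44.4 in the null libraries. In the null hearts it fell by 1.83 on the log2 scale (SE 0.12, limma adjusted p = 6.96e-09), with a lower value in 5 of 5 null libraries than in any wild-type library. The heart muscle markers were abundant in both genotypes, and *Tnnt2*, which encodes cardiac troponin T, had mean normalized counts of 37532 and 37652. Wild-type library 3 stood apart: 5 neuronal markers with recovered counts, of a list of 10, summed to 463 in it, and to between 44.5 and 67.8 in the other libraries. In the same library, 4 recovered skeletal muscle markers of a list of 6 summed to 33.6, against 2.61 to 12.9 in the other libraries, and the sums of 7 lung and foregut markers at 459 and of 2 cartilage markers at 538 were the highest of the 10. The other 5 neuronal markers had no recovered counts, and all 7 neuronal markers with a mean of at least 10 had a lower authors' mean in the null, by log2 ratios from -0.82 to -4.38.

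None of the 10 genes was called as different between the genotypes. The limma test covered 8 of them, and 0 passed an adjusted p of 0.05, beside 3 of 11206 genes (0.0268%) over the whole table. None of the 8 passed an unadjusted p of 0.05 either, against 412 of the 11206 genes (3.68%), and all 8 had a Benjamini-Hochberg adjusted p of 0.998. The test was limited to genes with recovered counts whose normalized count averaged 10 or more. *Tsc22d3* was too abundant for recovery and *Hsd11b1* fell under the minimum, so both are described by their values alone. The wild-type and null ranges overlapped for all 9 genes with library values. This is the usual outcome, as the ranges were apart for only 89 of the 11206 genes tested (0.794%). The median limma log2 fold change of the 8 genes was 0.06 (7 above 0 and 1 below), and 0.016 without wild-type library 3. Over all 11206 genes tested the median was -0.0046, with 5367 above 0 and 5839 below. The median size of the change, regardless of sign, was 0.059 for the 8 genes and 0.060 over all genes tested.

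**Figure D1:**
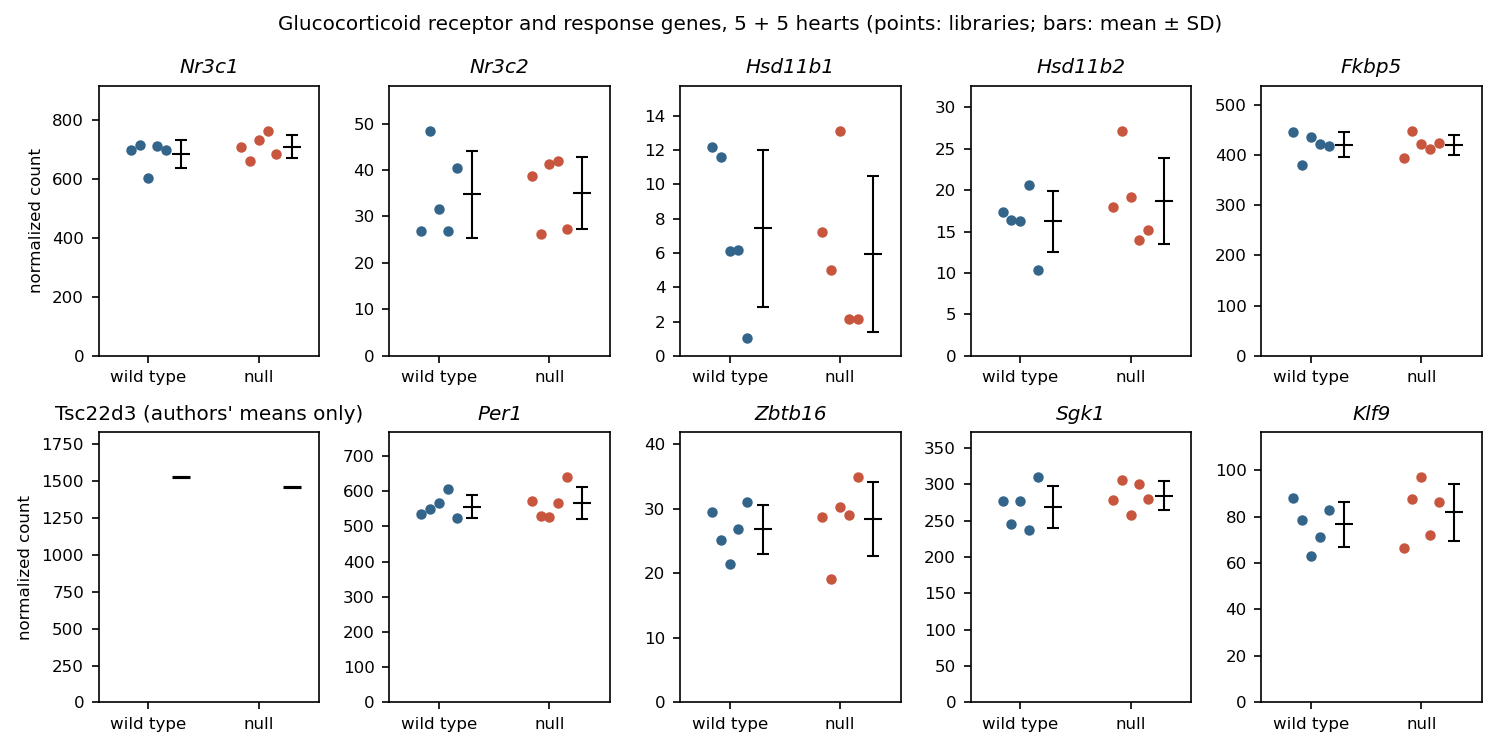
Normalized count (vertical axis, starting at 0) of each of the 10 genes in the wild-type (blue) and *Nos1ap* null (red) libraries. Points are the 5 libraries of a genotype in the order of their number, and bars give the mean ± SD. *Tsc22d3* has only the authors' means of 1524 and 1458. The ranges of the genotypes overlap for all 9 genes with points, and *Nr3c1* in wild-type library 3 sits at 602, under the other 9 libraries.

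*Nr3c1* (ENSMUSG00000024431.14, GRCm38 chromosome 18, 39410545 to 39519421, minus strand), which encodes the glucocorticoid receptor itself, was well expressed in all 10 hearts. Its normalized counts were 699, 715, 602, 709 and 698 in wild-type libraries 1 to 5, and 707, 660, 731, 761 and 684 in null libraries 1 to 5. Wild-type library 3, the one with the high neuronal and skeletal muscle markers, was the lowest of the 10, and the remaining wild-type values lay inside the null range. The means were 685 ± 47.0 and 708 ± 39.7 (SD, n = 5 each), a limma log2 difference of 0.05 with a 95% interval from -0.06 to 0.16. On the linear scale this interval runs from 0.960 to 1.12 times the wild-type level, and the exact two-sided permutation test gave an unadjusted p = 0.452. Without wild-type library 3 the wild-type mean was 705 ± 8.34 (SD, n = 4), and the log2 difference was 0.0048 with an interval from -0.09 to 0.10. Whether the signal of other tissues in that library had a part in its *Nr3c1* value was not tested. In whole-heart RNA, fewer cells of a type and less RNA per cell cannot be told apart, for this gene or for those that follow.

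*Nr3c2* (ENSMUSG00000031618.13, chromosome 8, 76899442 to 77245012, plus strand), encoding the mineralocorticoid receptor, was read far less often, with 351 reads over the 10 libraries against 6998 for *Nr3c1*. The normalized counts were 27.0, 48.4, 31.6, 26.8 and 40.3 in the wild type and 38.7, 26.1, 41.3, 41.9 and 27.2 in the null. Both genotypes spread over nearly the same range, and the highest value was a wild-type one. The means were 34.8 ± 9.37 and 35.1 ± 7.75 (SD, n = 5 each), and the log2 difference was 0.02 (95% interval -0.39 to 0.43, exact permutation p = 0.929). At this depth a level between 0.762 and 1.35 times that of the wild type lies within the interval. Per kilobase of exon, the *Nr3c1* level exceeded that of *Nr3c2* by 16.6-fold in the wild type and 17.03-fold in the null, as ratios of group means. The ratio in single libraries ran from 12.5 to 22.3 in the wild type and from 14.9 to 21.3 in the null (exact permutation p = 0.913 on the log2 ratio).

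The 2 enzyme genes that govern ligand access were the least read of the 9 genes with library values. *Hsd11b1* (ENSMUSG00000016194.14, chromosome 1, 193221634 to 193264075, minus strand), which regenerates active glucocorticoid from its inert keto form, had only 1 to 14 reads in each wild-type library and 2 to 13 in each null library. Its normalized counts were 12.2, 11.6, 6.11, 6.19 and 1.03 in the wild type and 7.20, 5.03, 13.1, 2.15 and 2.18 in the null. The genotypes overlapped over almost their whole ranges, and the highest value of all came from null library 3. The means were 7.43 ± 4.59 and 5.93 ± 4.54 (SD, n = 5 each; exact permutation p = 0.643). When limma was run with a minimum mean of 1, the log2 difference was -0.26 with a 95% interval from -1.35 to 0.82, so that neither a fall to 0.393 times nor a rise to 1.77 times the wild-type level lies outside it.

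*Hsd11b2* (ENSMUSG00000031891.5, chromosome 8, 105518755 to 105523988, plus strand), which inactivates glucocorticoid and thereby shields the mineralocorticoid receptor, was read 176 times over the 10 libraries. The normalized counts were 17.4, 16.5, 16.3, 20.6 and 10.3 in the wild type and 18.0, 27.1, 19.2, 13.96 and 15.2 in the null. Null library 2 was the highest and wild-type library 5 the lowest, with the other 8 libraries mixed between them. The means were 16.2 ± 3.72 and 18.7 ± 5.16 (SD, n = 5 each), and the log2 difference of 0.19 had a 95% interval from -0.31 to 0.69 (exact permutation p = 0.452). The log2 difference was 0.05 without wild-type library 5 and 0.05 without null library 2, and 0.28 without wild-type or null library 4. Per kilobase of exon, the inactivating enzyme stood above the regenerating one in 5 of 5 wild-type and 5 of 5 null libraries. The ratio of group means was 5.05 in the wild type and 7.28 in the null, with single libraries from 3.27 to 23.1 and from 3.38 to 16.2 (exact permutation p = 0.476 on the log2 ratio). These ratios rest on the few *Hsd11b1* reads given above and on the length used: with the longest transcripts in place of all exons, the ratio of group means was 2.35 in the wild type and 3.39 in the null, and it stayed above 1 in 5 of 5 libraries of each genotype.

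Among the response genes, *Fkbp5* (ENSMUSG00000024222.16, chromosome 17, 28399094 to 28517527, minus strand) encodes the co-chaperone that lowers ligand binding by the receptor and is induced by it. It showed the narrowest spread of the group. Its normalized counts were 446, 380, 436, 422 and 418 in the wild type and 393, 447, 421, 411 and 424 in the null. Wild-type library 2 was the lowest and null library 2 the highest, and the null range lay almost wholly inside the wild-type range. The means were 420 ± 25.0 and 419 ± 19.7 (SD, n = 5 each), the log2 difference was -0.0028, and the 95% interval from -0.12 to 0.11 corresponds to 0.921 to 1.08 times the wild-type level (exact permutation p = 0.976).

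*Tsc22d3* (ENSMUSG00000031431.13, chromosome X, 140539528 to 140600659, minus strand), encoding the leucine zipper protein GILZ that mediates anti-inflammatory actions of the hormone, was the most abundant of the 10. The authors' means were 1524 in the wild type and 1458 in the null, a log2 ratio of -0.06. No spread between libraries was recovered for it, so this ratio has no error and no test here.

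*Per1* (ENSMUSG00000020893.17, chromosome 11, 69095217 to 69109960, plus strand) is a core clock gene that the receptor also induces directly. The normalized counts were 536, 549, 566, 608 and 525 in the wild type and 572, 530, 527, 567 and 639 in the null. Null library 5 was the highest and wild-type library 5 the lowest, and the other values interleaved. The means were 557 ± 32.5 and 567 ± 45.3 (SD, n = 5 each), with a log2 difference of 0.03 and a 95% interval from -0.09 to 0.14 (exact permutation p = 0.667). Without null library 5 the log2 difference was -0.02, so its sign rests on that library.

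*Sgk1* (ENSMUSG00000019970.15, chromosome 10, 21882184 to 21999903, plus strand), a kinase gene induced through both receptors that regulates ion channels and transporters, had the smallest p of the group. Its normalized counts were 278, 245, 277, 237 and 309 in the wild type and 278, 306, 257, 301 and 280 in the null. The highest library was a wild-type one and so was the lowest, and 4 of 5 null libraries lay above the wild-type mean. The means were 269 ± 28.9 and 284 ± 19.5 (SD, n = 5 each). The log2 difference of 0.08 had an SE of 0.07, a 95% interval from -0.07 to 0.24, and an unadjusted limma p = 0.283 (exact permutation p = 0.349). Leaving out single libraries moved the log2 difference between 0.04, without wild-type library 4, and 0.13, without wild-type library 5.

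*Klf9* (ENSMUSG00000033863.1, chromosome 19, 23141226 to 23168134, plus strand), a zinc finger transcription factor gene and early target of the receptor, was read at a fraction of these levels. The normalized counts were 87.9, 78.4, 63.1, 71.2 and 82.8 in the wild type and 66.6, 87.5, 96.8, 71.9 and 86.0 in the null. Wild-type library 3 was again the lowest of the 10, and null library 3 was the highest. The means were 76.7 ± 9.74 and 81.8 ± 12.3 (SD, n = 5 each), and the log2 difference was 0.09 (95% interval -0.17 to 0.35, exact permutation p = 0.460). Without wild-type library 3 the log2 difference was 0.02 (95% interval -0.24 to 0.28). *Nr3c1* and *Klf9* were the 2 of 9 genes for which that library held the lowest of the 10 values, and none of the 9 had its highest value there.

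*Zbtb16* (ENSMUSG00000066687.4, chromosome 9, 48654297 to 48836222, minus strand) encodes the transcription factor PLZF and is strongly induced by glucocorticoids in many tissues. It was read 277 times over the 10 hearts. The normalized counts were 29.6, 25.2, 21.4, 26.8 and 31.04 in the wild type and 28.8, 19.1, 30.2, 29.0 and 34.9 in the null. Both the highest and the lowest value belonged to the null, which enclosed the wild-type range. The means were 26.8 ± 3.80 and 28.4 ± 5.74 (SD, n = 5 each), and the log2 difference was 0.07 (95% interval -0.33 to 0.46, exact permutation p = 0.619). Without wild-type library 3, where the value was the second lowest, the log2 difference was -0.0085.

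**Figure D2:**
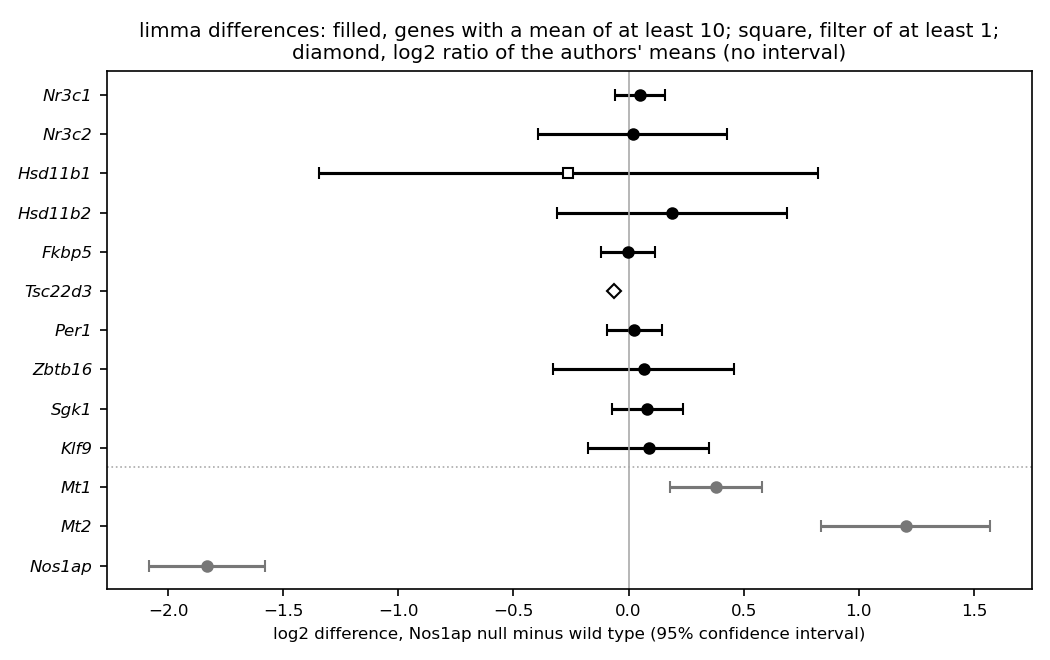
Difference between *Nos1ap* null and wild type for each gene (horizontal axis, log2 scale, null minus wild type). Filled circles are limma differences with their 95% confidence interval for the 8 tested genes and, in grey, for *Mt1*, *Mt2* and *Nos1ap*. The square is *Hsd11b1* under a minimum mean of 1, and the diamond is the ratio of the authors' means of *Tsc22d3*, with no interval. Each interval of the 10 genes crosses 0, and the widest belongs to *Hsd11b1*, from -1.35 to 0.82.

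The DNA in front of the annotated transcription starts of these genes differs in how many of the receptor's letters it holds. RefSeq promoter windows on GRCm38.p6 were at hand for 7 of the 10 genes, in 15 windows, *Sgk1* having 6 of them and *Tsc22d3* 3. The 250 bases before each transcription start were searched on both strands for the paired receptor element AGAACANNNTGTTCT, for a single arm of it, TGTTCT, and for the E-box CACGTG through which clock factors act. The paired element was present in 1 window, of *Sgk1*, and in 0.00913% of all 32851 promoter windows of the same length. Single arms were present in 4 windows of *Sgk1* and *Tsc22d3* (16.1% of all windows), and E-boxes in 1 window each of *Sgk1*, *Per1* and *Fkbp5* (6.02% of all windows). A match is a description of letters and not of binding, and enhancers farther away were not searched. The windows of *Sgk1*, *Tsc22d3* and *Per1* are shown because they hold, in this order, the paired element, a lone arm and an E-box, which stand in capitals.
Sgk1: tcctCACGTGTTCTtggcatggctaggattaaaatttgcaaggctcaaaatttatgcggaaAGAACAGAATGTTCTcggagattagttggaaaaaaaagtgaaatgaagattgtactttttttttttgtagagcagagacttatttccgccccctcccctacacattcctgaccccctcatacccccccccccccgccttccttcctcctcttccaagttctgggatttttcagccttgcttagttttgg
Tsc22d3: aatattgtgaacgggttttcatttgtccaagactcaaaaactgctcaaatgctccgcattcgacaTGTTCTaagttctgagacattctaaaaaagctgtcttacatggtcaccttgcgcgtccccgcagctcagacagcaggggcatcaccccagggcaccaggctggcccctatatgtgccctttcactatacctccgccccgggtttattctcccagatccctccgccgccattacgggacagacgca
Per1: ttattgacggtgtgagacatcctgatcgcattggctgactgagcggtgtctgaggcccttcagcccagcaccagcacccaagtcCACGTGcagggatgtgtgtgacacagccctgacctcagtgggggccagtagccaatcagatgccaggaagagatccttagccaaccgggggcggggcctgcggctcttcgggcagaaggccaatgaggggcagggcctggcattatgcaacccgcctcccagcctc

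The *Sgk1* window shown lies at chr10:21993640-21993889 on the plus strand, the *Tsc22d3* window at chrX:140600523-140600772 on the minus strand, and the *Per1* window at chr11:69098699-69098948 on the plus strand, each written 5′ to 3′ in the direction of transcription. By the gene spans given above, the *Sgk1* and *Per1* windows lie inside the gene, and the *Tsc22d3* window lies partly inside it. The windows follow RefSeq starts and the gene spans are those of GENCODE M21, which can place a start differently. No start is marked as main or alternative, and distances are counted from the start that each window precedes. In *Sgk1* the paired element begins 189 bases before the start, and farther out an E-box at 246 bases runs into a single arm at 242 bases, sharing letters with it. In *Tsc22d3* the single arm begins 185 bases before the start, and in *Per1* the E-box begins 166 bases before it. The gene with the paired element, *Sgk1*, and the genes with an E-box and no arm, *Per1* and *Fkbp5*, had limma intervals across 0 as given above. Which start site a read came from is not resolved.

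Per kilobase of exon, the 10 genes spanned a wide range of levels in these hearts. *Tsc22d3* stood first, at 343 normalized counts per kilobase averaged over the genotypes, higher than 90.9% of protein-coding genes. *Per1* at 99.8 and *Nr3c1* at 90.6 followed, and the ranges of their libraries overlapped. *Sgk1* at 56.4 lay apart from *Nr3c1* and from *Fkbp5* at 44.4, with no library of one inside the range of the next. *Klf9* at 16.5, *Hsd11b2* at 9.49, *Nr3c2* at 5.40 and *Zbtb16* at 5.22 formed a chain in which each overlapped its neighbour, and *Hsd11b1* was last at 1.57, higher than 16.99% of protein-coding genes. With the length of the longest transcript in place of all exons, *Fkbp5* moved from 44.4 to 109 and passed from the fifth to the third place, *Sgk1* moved to 89.4, *Tsc22d3* to 518 and *Hsd11b1* to 3.38. The order of *Nr3c1*, *Sgk1* and *Fkbp5* therefore depends on the length used.

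**Figure D3:**
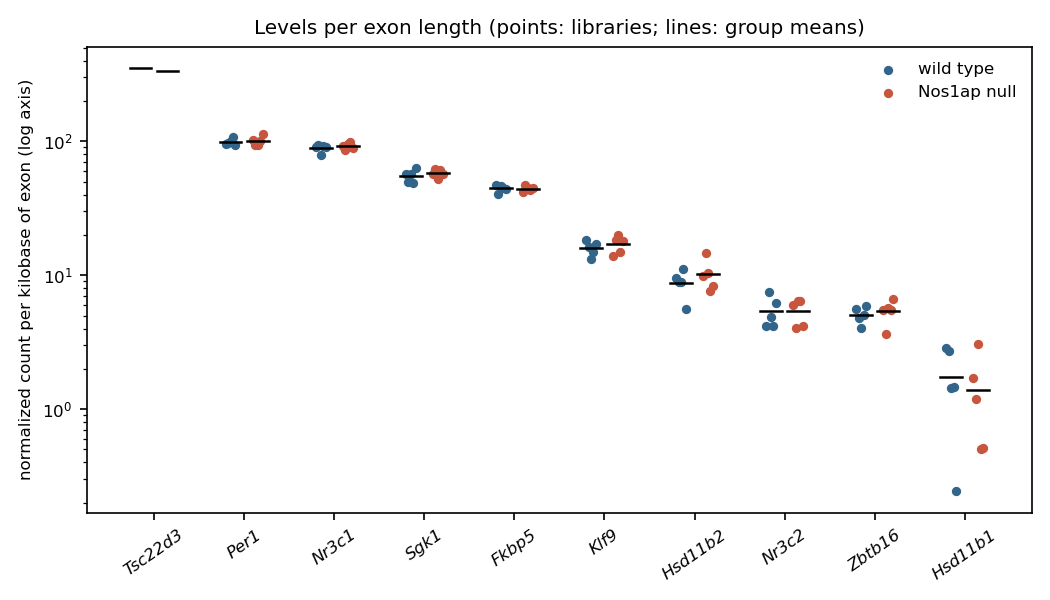
Normalized count per kilobase of exon (vertical axis, logarithmic) of the 10 genes, ordered by their mean level, in wild-type (blue) and *Nos1ap* null (red) libraries. Points are libraries and lines are the authors' group means divided by the exon length. Levels run from 343 for *Tsc22d3* to 1.57 for *Hsd11b1*, and the points of the genotypes overlap for all 9 genes that have them.

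The spread between hearts of one genotype was narrowest for the 4 most-read genes with library values. The coefficient of variation within genotypes was 5.37% for *Fkbp5*, 6.24% for *Nr3c1*, 7.02% for *Per1* and 8.91% for *Sgk1*. It was 13.99% for *Klf9*, 17.6% for *Zbtb16*, 24.6% for *Nr3c2*, 25.8% for *Hsd11b2* and 68.3% for *Hsd11b1*. For *Zbtb16*, *Hsd11b2* and *Fkbp5* the variance was 0.859, 1.16 and 1.21 times what read counting alone gives, so that little spread beyond counting was seen. For *Nr3c1*, *Per1* and *Hsd11b1* it was 2.71, 2.77 and 3.12 times that of counting. The *Nr3c1* value leans on wild-type library 3: the wild-type SD was 47.0 with that library and 8.34 without it. The 9 genes did not move as one from heart to heart: of 36 pairs, 15 had a positive and 21 a negative Pearson correlation of log2 values over the 10 libraries after centring within genotype, with a median of -0.09. The pairs at the ends were *Nr3c2* with *Fkbp5* at -0.79 and *Hsd11b1* with *Hsd11b2* at 0.65, and the receptors *Nr3c1* and *Nr3c2* stood at 0.50. Genes of one library share its depth and tissue, and with n = 10 these values are a description only.

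The wider pathway was read through gene lists, each compared with all 14330 genes of a mean of at least 10, whose median log2 ratio of the authors' means was -0.0013, with 49.4% above 0. The 12 receptor chaperones, among them *Hsp90ab1*, *Hsp90aa1* and *Fkbp4*, which fold the receptor and carry it to the nucleus, were all too abundant for recovery. Their log2 ratios ran from -0.06 to 0.03, with a median of -0.02, 3 above 0 and 9 below. Of the 12 coregulators, which link the receptor to chromatin and the transcription machinery, 6 were tested and 0 called. The smallest p was that of *Ncoa3*, with authors' means of 814 and 862 (limma log2 difference 0.08, unadjusted p = 0.048, adjusted p = 0.998). *Ncoa2* and *Ncoa1* had log2 differences of 0.05 and 0.05.

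Of the other steroid receptors, *Esr1* alone was tested, at means of 24.2 and 27.3 (95% interval of the log2 difference -0.27 to 0.60). *Pgr* and *Esr2* had authors' means under 10 in both genotypes. Genes of steroid supply and transport differed widely in level. The side chain cleavage enzyme gene *Cyp11a1* had authors' means of 0.204 and 0.398, whereas *H6pd* had 560 and 577. Of the 12 genes of this list 5 were tested, with 0 called, and the hormone itself was not measured. *Hsd3b1*, a steroid dehydrogenase gene, had normalized counts of 15.7, 1.94, 6.11, 11.4 and 4.14 in the wild type and 14.4, 64.4, 9.07, 9.66 and 9.80 in the null. Null library 2 stood far above the other 9, which overlapped between the genotypes (95% interval of the limma log2 difference -0.13 to 2.42, adjusted p = 0.998). *Abcb1b*, a steroid exporter gene, and *H6pd*, which supplies the cofactor of the *Hsd11b1* enzyme, had log2 differences of -0.23 and 0.04.

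No gene of the neighbouring programmes was called. Of 9 mineralocorticoid-induced genes, *Sgk1* and *Tsc22d3* included, 2 were tested and 0 called, and the sodium channel subunit gene *Scnn1a* had means of 29.9 and 28.1. All 12 clock genes, *Per1* included, had a mean of at least 10. Of these, 11 had a higher authors' mean in the null and 1 a lower one, with a median log2 ratio of 0.05 and a highest of 0.13, and of the 10 tested 0 were called. *Per3*, *Nr1d2* and *Tef* had the smallest p of these, at log2 differences of 0.12, 0.09 and 0.06 with 95% intervals from -0.07 to 0.31, -0.08 to 0.27 and -0.05 to 0.17. Of 12 immediate early genes, which respond to stimuli within minutes to hours, 10 were tested and 0 called. By the authors' means, 9 of the 12 were higher in the null and 3 lower, with a median log2 ratio of 0.07. The median limma log2 difference of the 10 tested was 0.04, or 0.0031 without null library 4 and 0.07 without null library 1. *Atf3*, *Nr4a1* and *Dusp1* stood at log2 differences of 0.18, 0.10 and 0.08.

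**Figure D4:**
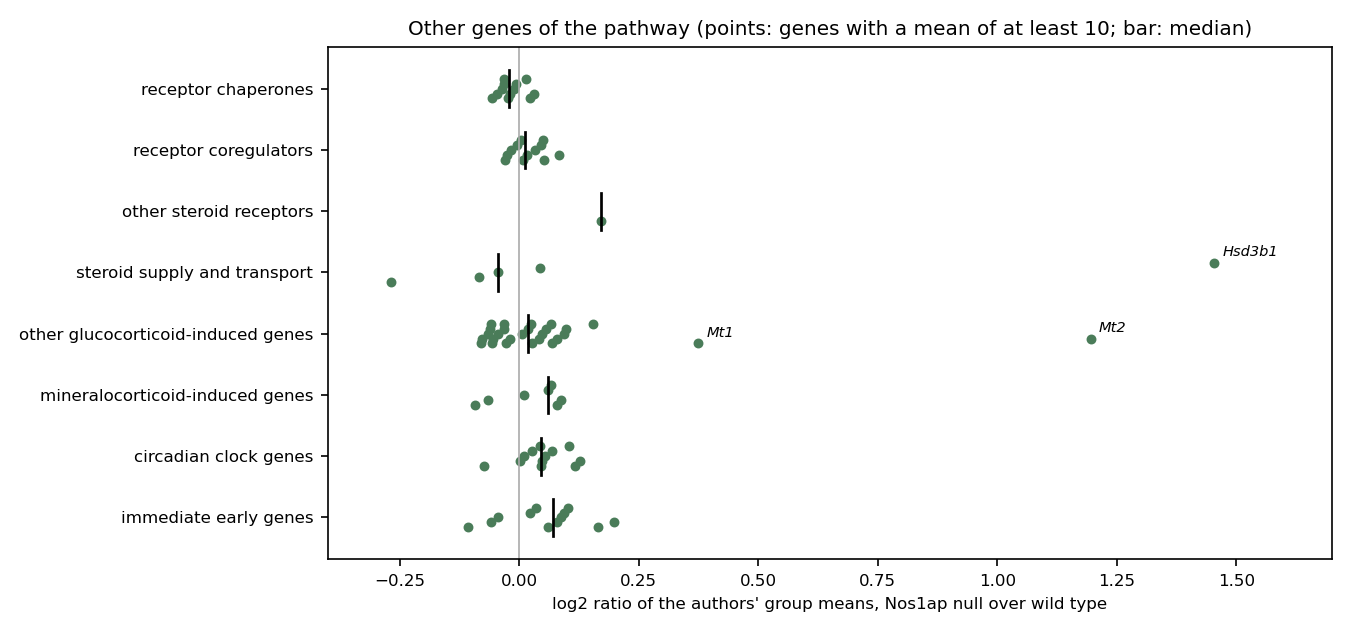
Log2 ratio of the authors' group means, *Nos1ap* null over wild type (horizontal axis), for those genes of 8 pathway lists whose normalized count averaged 10 or more. Each point is a gene and each bar the median of its list. The medians lie close to 0 except for the list of other steroid receptors, which holds *Esr1* alone at 0.17, and *Hsd3b1*, *Mt2* and *Mt1* lie apart at 1.45, 1.195 and 0.37.

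The list of 30 other glucocorticoid-induced genes held the single call of the pathway. Of its 18 tested genes, 1 rose and 0 fell, beside 3 of 11206 genes (0.0268%) called over the whole table. The median limma log2 difference of the 18 was -0.02. The median log2 ratio of the authors' means over its 27 genes with a mean of at least 10 was 0.02. The gene that rose was *Mt2*, which with *Mt1* encodes small metal-binding proteins that are induced by metals as well as by glucocorticoids. The authors had already reported *Mt2* as increased in these null hearts, and the lists were chosen with earlier results of these data known. Its call is therefore no independent result about the list. The *Mt2* normalized counts were 27.8, 29.0, 31.6, 55.7 and 32.1 in the wild type and 69.3, 72.4, 75.6, 79.5 and 107 in the null. Every null library lay above every wild-type library, and wild-type library 4 stood apart from the other wild-type ones. The means were 35.2 ± 11.6 and 80.7 ± 15.03 (SD, n = 5 each), a limma log2 difference of 1.203 (SE 0.18, adjusted p = 0.00414). Erythroid markers also differed in level: 7 of 8 had a higher authors' mean in the null, with log2 ratios of the list from -0.17 to 0.79. The part of red blood cells in the *Mt2* result was not tested.

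*Mt1* had normalized counts of 217, 226, 197, 295 and 237 in the wild type and 264, 315, 289, 301 and 350 in the null. The ranges overlapped through wild-type library 4, which was again the highest of its genotype. The log2 difference was 0.38 (95% interval 0.18 to 0.58, unadjusted p = 0.000957, adjusted p = 0.848), so *Mt1* missed the threshold over all genes. *Foxo1*, a transcription factor gene of fasting metabolism, came next in this list at a log2 difference of -0.06 (95% interval -0.15 to 0.02, limma adjusted p = 0.998).

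For the 5 genes with library values and a mean of at least 50, the protein-coding genes with the most similar course over the 10 libraries were sought among 8303 others of the same minimum mean, by Pearson correlation after centring within genotype. *Pdia5* (0.95), *Cetn2* (0.92) and *Tmem71* (0.92) came nearest to *Nr3c1*. *Trappc6a* (0.98), *Nt5c* (0.96) and *St6galnac6* (0.95) came nearest to *Fkbp5*, and *Zfp30* (0.96), *C77080* (0.89) and *Gigyf1* (0.88) to *Per1*. *Cstf1* (0.95), *Spg20* (0.91) and *Maml3* (0.90) came nearest to *Sgk1*, and *Ass1* (0.96) and *Uqcc1* (0.94) were among the nearest to *Klf9*. These are the highest of many correlations over few libraries that share depth and tissue. No other of the 10 genes, and no gene of the pathway lists, was among those named.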

How the data were processed

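PolyA RNA-seq libraries of hearts from 5 wild-type and 5 *Nos1ap* null embryos were grouped by genotype label. Per the submitters' processing notes and methods, the authors trimmed reads (Trimmomatic 0.36), aligned and counted them (STAR within RSEM 1.2.31, GENCODE release M10, GRCm38) and compared genes with DESeq 1.24.0. The deposited signal values are group means of normalized counts, that is, of read counts that the authors divided by size factors. The deposited fold change, p-value and adjusted p columns hold the authors' own test and were not used.

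Whole counts per library were recovered from the 15 digits of the means by a lattice search, up to a mean of 1000 and where at most 0.01 chance solutions were expected. This gave 98.5% of wild-type and 98.8% of null genes up to that mean. Genes with very unequal libraries can be missed. The recovered libraries carry no replicate number. limma 3.58.1 (R 4.3.3, trend and robust moderation, Benjamini-Hochberg over 11206 genes) was run on log2(normalized count + 1), with a minimum mean of 10. It was used in place of the authors' count test, and no count test was run on the recovered counts. Differences are on this log2 scale, which understates those of low genes. Exact two-sided permutation tests used the 252 arrangements of 10 libraries, with a smallest p of 0.00794. Search and fit were tested on simulated data. Positions and exon lengths are from GENCODE M21 (GRCm38). Genes named are the 10, *Nos1ap*, *Mt1*, *Mt2*, the called and the 3 smallest-p genes of each pathway list, and the 3 nearest patterns, of which some are not reported here. *Hsp90ab1*, *Hsp90aa1*, *Fkbp4*, *Pgr*, *Esr2* and *Cyp11a1* were named outside this rule, after their values were seen. The genes and lists were chosen with earlier results of these data known. Separate litters are not stated, so p-values measure the spread between these libraries. Library depth sets counting precision, and intervals cover no error of alignment.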

Additional observations from a re-analysis of the deposited data

Results flagged for a closer look

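In groups of 5, a library was marked where its gap to the nearest other library exceeded 0.71 of the range, which chance gives in about 1 group in 20, and 26 groups of gene values and 18 of summed markers were examined. *Nr3c1* was at 602 in wild-type library 3, a gap of 0.850 of the range under the other wild-type libraries. The summed neuronal markers were at 463 in the same library, a gap of 0.944 of the range, and the summed skeletal muscle markers at 33.6 (0.897). The summed neuronal markers were also marked in null library 5, at 66.4 (0.734). *Mt2* was at 55.7 in wild-type library 4 (0.848) and at 107 in null library 5 (0.728), both on the high side. *Hsd3b1* was at 64.4 in null library 2 (0.904). Whether these values go together for a reason was not tested.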

How the results depend on the processing

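The count of called genes was 3 under a pseudocount of 0.5, upper-quartile scaling, voom weights, protein-coding genes only and in each of the 10 fits that left out a library, and 4 with a minimum mean of 1. None of the 10 genes was called in any alternative, the smallest adjusted p of the 8 tested being 0.873. Their median log2 fold change ran from 0.02 to 0.08 when single libraries were left out. Signs turned for uncalled genes when 1 library was left out: the log2 difference ran from -0.063 to 0.14 for *Nr3c2*, from -0.038 to 0.020 for *Fkbp5*, from -0.019 to 0.058 for *Per1* and from -0.011 to 0.20 for *Zbtb16*. That of *Mt2* ran from 1.10 to 1.38. No paired analysis was possible because the recovered libraries carry no replicate numbers. When single libraries were left out, the list medians ran from 0.02 to 0.05 for coregulators, from 0.05 to 0.28 for other steroid receptors, from -0.13 to 0.06 for steroid supply, from -0.03 to 0.01 for other glucocorticoid-induced genes, from -0.05 to 0.05 for mineralocorticoid-induced genes, from 0.03 to 0.07 for clock genes and from 0.0031 to 0.07 for immediate early genes. *Hsd11b1* had 69 read pairs in all, and the cap on recovery left *Tsc22d3* and the chaperones without a test.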
